A study of Mus musculus with 12 samples.

Results

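Hypoxia and glycolysis genes are described here in the mouse uterus over the estrous cycle. The group holds 40 named genes of 35896 genes with a transcript in the files. They are a list of names: 20 of glucose uptake, glycolysis and lactate handling, and 20 hypoxia-inducible or oxygen-sensing genes. No threshold on measured values was set, but the list was chosen with earlier results of these data known. Shares of members set against those of all genes are to be read with that limit. All 40 were found, and 39 of them were among the 12052 genes that passed the filter on low counts. Ddit4, a stress-induced inhibitor of growth signalling, did not pass. The animals were Swiss Webster wild-type females of 8 to 12 weeks, and each of the 12 samples was RNA of a whole uterus. There were 3 samples each of proestrus (replicates 1, 2 and 3), estrus (3, 4 and 5), metestrus (5, 6 and 7) and diestrus (3, 4 and 5). All were untreated as far as the labels say, and polyadenylated RNA was read by 3′ TagSeq, which sequences fragments near the 3′ ends of transcripts. A whole uterus holds epithelium, stroma, smooth muscle, vessels and immune cells, so that fewer cells of a type and less RNA per cell cannot be told apart. The labels do not say how the stage of each animal was read.

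Glycolysis splits glucose into pyruvate in the cytosol. Pyruvate then enters mitochondria for oxidation or is reduced to lactate and exported. Under low oxygen the prolyl hydroxylases (Egln genes) no longer mark the hypoxia-inducible factor subunits Hif1a and Epas1 for breakdown, and these factors switch on glucose transporters, glycolytic enzymes, mitophagy receptors and their own hydroxylases. Their control acts largely on protein stability, so the RNA of Hif1a need not follow their activity. The uterus is remodelled in every cycle under estrogen, which peaks around proestrus, and progesterone.

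Libraries held 1652841 to 2200563 estimated counts, of which 0.619% to 0.774% belonged to transcripts not matched to a gene. Levels are given as CPM, counts scaled to a common library total with trimmed mean (TMM) factors, and 3 counts correspond to 1.37 to 1.89 CPM. Uterine markers Esr1, Pgr, Hoxa10 and Hoxa11 were present, and the vaginal and cervical gene Hoxa13 was at 0 in every library. Metestrus replicate 5 stood apart from the other metestrus samples. Its summed level of 5 estrogen-induced secretory genes was 4803 CPM against 610 and 383 CPM in replicates 6 and 7, and 9 stromal markers summed to 7212 CPM against 15990 and 13640 CPM. The counts of members called below are also given without it, and counts for other gene lists are not. For fits with a sample left out or of 2 stages alone, counts over all genes are not given. Such fits do not show whether a loss of calls is particular to the members. The labels give 3 uteri for each stage without naming animals, and p-values measure only the spread between these samples.

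Most of these genes were at their highest level in estrus. The 40 genes summed to 5011, 5445 and 5111 CPM in the estrus samples, against 3548 to 3684 CPM in proestrus, 3334 to 3465 CPM in metestrus and 3361 to 3452 CPM in diestrus. The estrus samples thus lay above all others, and the other stages differed little in the sum. In the edgeR quasi-likelihood F test over the 4 stages, with Benjamini-Hochberg adjustment over all tested genes and a threshold of 0.05, 30 of the 39 tested members differed. Of all tested genes 23.2% did. Of those 30 members, 27 were highest in estrus, 2 in proestrus (Hif1a and Plod2), 1 in diestrus (Pfkfb3) and 0 in metestrus. Of all genes that passed the same test, 46.2% were highest in estrus. In 22 members the 3 estrus samples lay above the other 9 samples, a pattern held by 7.11% of all tested genes. In 2 members, Hif1a and Plod2, they lay below the other 9, as in 5.45% of all tested genes. Without metestrus replicate 5 the F test called 29 of the members, and the only one lost was Ak4. It called 22 without estrus replicate 4, the fewest with any 1 sample left out. The mean summed levels of macrophage markers and of estrogen-induced genes were also highest in estrus, with the values given further on, and their part in the result was not tested.

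**Figure D1:**
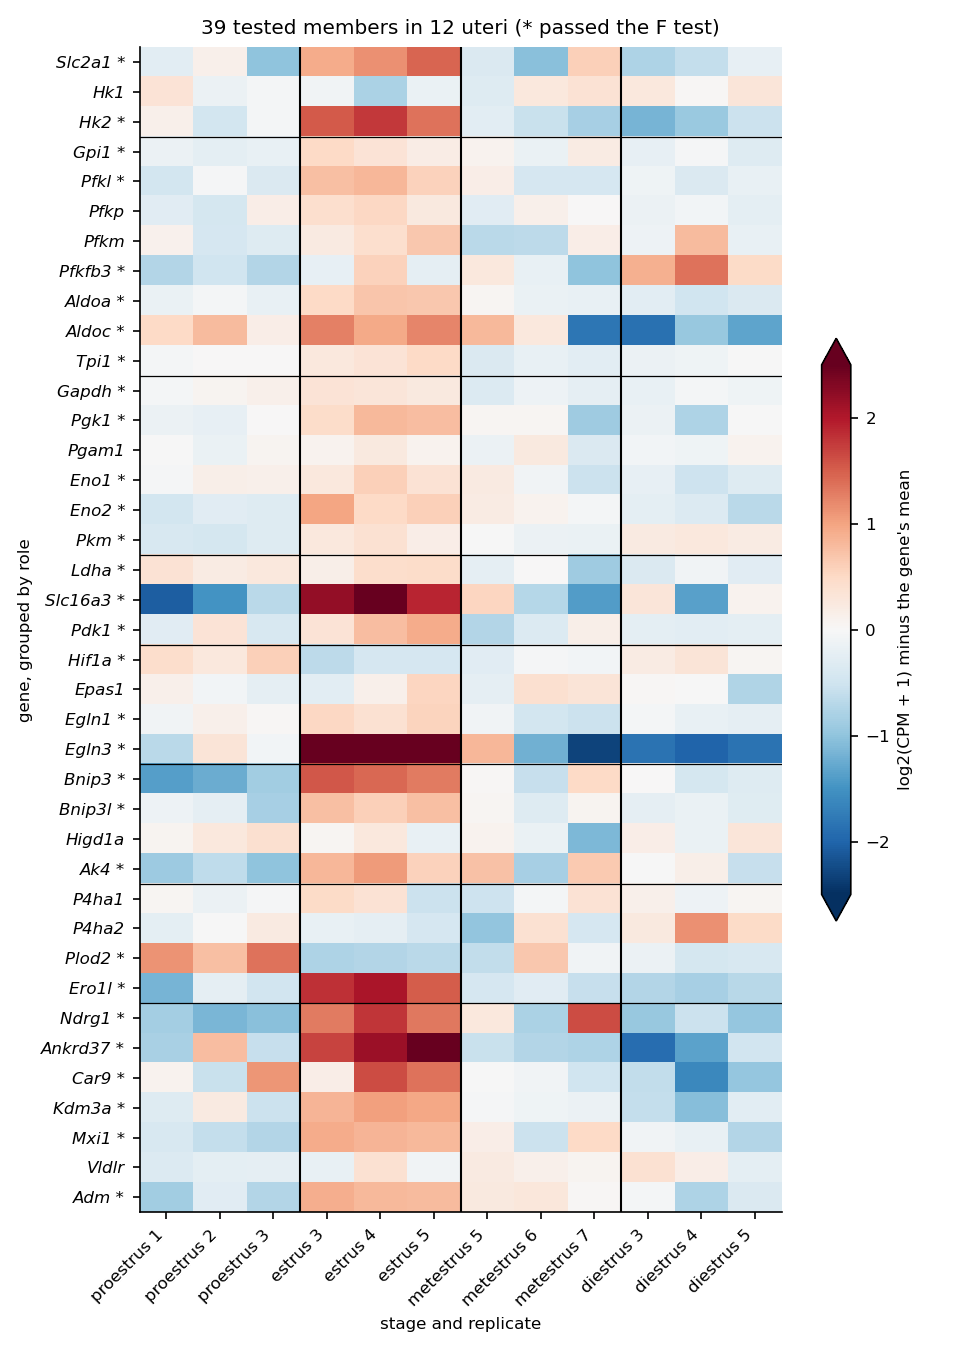
Heat map of 39 tested members (rows, by role) in 12 samples (columns, by stage); colour is log2(CPM + 1) minus the gene's mean over the 12 samples, with values past either end of the scale shown in the end colour, and a star marks genes that passed the F test. The 3 estrus columns are high for most rows, while Hif1a and Plod2 are lowest there and Pfkfb3 is highest in diestrus.

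The upstream sequences of the members with the smallest F-test p-values that had an entry in the RefSeq promoter table (build GRCm38.p6) show where the core letters of the hypoxia response element occur. Sequences run 5′ to 3′ on the gene's strand up to the base before its start, and all 4 genes lie on the minus strand. Capitals mark ACGTG or GCGTG on either strand (CACGT or CACGC when read here). Hk2 (hexokinase 2) is shown from chr6:82774455-82774704, Bnip3 (a mitophagy receptor) from chr7:138909520-138909756, Egln3 (an oxygen-sensing prolyl hydroxylase) from chr12:54203875-54204124 and Ero1l (an oxidase of the endoplasmic reticulum, named Ero1a in RefSeq) from chr14:45318772-45318822. Bases that the GENCODE gene model counts as transcribed were left out, 13 for Bnip3 and 199 for Ero1l.
Hk2: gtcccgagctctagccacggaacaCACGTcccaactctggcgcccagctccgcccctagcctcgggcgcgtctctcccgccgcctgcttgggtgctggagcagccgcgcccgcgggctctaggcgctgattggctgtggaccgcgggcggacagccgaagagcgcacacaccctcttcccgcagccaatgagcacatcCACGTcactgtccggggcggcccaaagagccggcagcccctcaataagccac
Bnip3: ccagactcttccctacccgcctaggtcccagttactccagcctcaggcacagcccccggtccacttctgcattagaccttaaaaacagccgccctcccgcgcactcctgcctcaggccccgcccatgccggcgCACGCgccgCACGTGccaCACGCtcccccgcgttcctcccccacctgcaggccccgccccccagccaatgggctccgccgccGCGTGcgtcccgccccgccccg
Egln3: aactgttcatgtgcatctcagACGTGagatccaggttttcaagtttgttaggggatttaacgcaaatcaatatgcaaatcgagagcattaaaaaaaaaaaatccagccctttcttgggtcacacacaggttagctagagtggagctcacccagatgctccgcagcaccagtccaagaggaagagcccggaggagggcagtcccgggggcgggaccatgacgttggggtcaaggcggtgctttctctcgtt
Ero1l: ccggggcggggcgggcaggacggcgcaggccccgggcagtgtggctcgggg
Hk2 held 2 matches, Egln3 held 1 and Bnip3 held 5, of which a pair overlap as the palindrome CACGTG. The 3 matches of Ero1l lay in the part left out. The table had entries for 36 of the 40 members, all but Epas1, Bnip3l, Plod2 and Ndrg1. In the 250 bases before the start, 28 of these 36 (77.8%) held at least 1 match, against 56.7% of the 9288 genes in the table that passed the count filter and 38.6% of all 27025 genes in it. Among members that passed the F test 21 of 27 (77.8%) held at least 1 match and 13 of 27 (48.15%) held 2 or more. Among the others, untested Ddit4 included, 7 of 9 (77.8%) held at least 1 and the same 7 held 2 or more. Of the genes in the table that passed the count filter 28.0% held 2 or more, and of all genes in it 16.8%. A palindrome CACGTG counts as 2 matches, and the 2 matches of Pfkm form such a palindrome. The windows of members had a median GC content of 62.8%, against 60.0% for the genes that passed the filter and 52.0% for all genes. A match describes the letters only. Binding was not measured.

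Glucose enters cells through transporters such as Slc2a1 and is trapped by hexokinases. Slc2a1, the basal glucose transporter, averaged 23.7 ± 9.10 CPM (SD, n = 3) in proestrus, 68.7 ± 13.2 in estrus, 27.3 ± 16.2 in metestrus and 20.6 ± 4.40 in diestrus. Its estrus level was above that in proestrus (log2 fold change 1.54 ± 0.35 SE, adjusted p = 0.00955) and diestrus fell below estrus by 1.75 ± 0.35 (adjusted p = 0.00341). Hk2 is the inducible hexokinase. It was measured, in the replicate order given above and used throughout, at 31.9, 21.0 and 28.4 CPM in proestrus, 86.6, 102 and 76.9 in estrus, 24.4, 19.6 and 16.1 in metestrus, and 12.5, 14.8 and 19.8 in diestrus. Every estrus sample exceeded every other sample, with the lowest estrus sample well above the highest of the rest. Hk2 rose from proestrus to estrus by 1.70 ± 0.21 (adjusted p = 0.000364) and was lower in metestrus than in estrus by a log2 change of -2.13 ± 0.22 (adjusted p = 0.000153). Hk1, the constitutive hexokinase, had means of 51.2, 39.5, 54.0 and 56.8 CPM in proestrus, estrus, metestrus and diestrus, and did not pass the F test (adjusted p = 0.285).

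Upper glycolysis turns glucose phosphate into triose phosphates, and 6 of its 8 members differed over the stages. Phosphofructokinase is the committing step. Its liver isoform Pfkl was at 25.1, 34.0 and 26.9 CPM in proestrus, 59.4, 62.9 and 52.7 in estrus, 38.9, 25.9 and 25.6 in metestrus, and 32.4, 26.7 and 30.6 in diestrus. The estrus samples formed a group of their own and the other 3 stages overlapped. Pfkl rose in estrus against proestrus by 1.02 ± 0.19 (adjusted p = 0.00347) and was lower in diestrus than in estrus (-0.96 ± 0.19, adjusted p = 0.00276). The platelet isoform Pfkp averaged 30.98, 46.3, 34.1 and 31.3 CPM over proestrus, estrus, metestrus and diestrus and missed the F-test threshold (adjusted p = 0.0754). Its reads are uncertain because 748 exon bases near its 3′ end overlap Pitrm1 on the opposite strand, and use of strand in the counting is not stated. The muscle isoform Pfkm averaged 9.02, 14.7, 8.15 and 12.4 CPM and did not pass (adjusted p = 0.222).

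Pfkfb3, which makes the activator of phosphofructokinase, departed from the common pattern. It averaged 19.4 ± 1.91 CPM in proestrus, 33.0 ± 11.5 in estrus, 26.5 ± 11.2 in metestrus and 60.8 ± 18.6 in diestrus. Diestrus was thus its highest stage, and proestrus was lower than diestrus by a log2 change of -1.65 ± 0.32 (adjusted p = 0.0061), a call that held under every alternative.

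Aldolase cleaves the sugar into trioses. Aldoa was at 236, 255 and 230 CPM in proestrus, 372, 424 and 418 in estrus, 272, 234 and 232 in metestrus, and 218, 185 and 204 in diestrus. All estrus samples were high, all diestrus samples were below all others, and proestrus and metestrus overlapped. It rose from proestrus to estrus by 0.75 ± 0.12 (adjusted p = 0.00191), and diestrus against estrus gave -0.999 ± 0.125 (adjusted p = 0.000142). Aldoc, the brain-type aldolase, averaged 24.7 ± 5.45, 39.01 ± 4.58, 18.5 ± 13.4 and 6.21 ± 2.21 CPM over proestrus, estrus, metestrus and diestrus. It was lower in diestrus than in estrus by -2.64 ± 0.48 (adjusted p = 0.00182), and its metestrus samples spread from 30.6 in replicate 5 to 4.17 in replicate 7. Gpi1, the isomerase, averaged 145, 212, 172 and 147 CPM in the same order of stages, and Tpi1, the triose isomerase, 298.6, 388, 249 and 281 CPM. Both passed the F test (adjusted p = 0.0257 and 0.00674). The call of Gpi1 was lost without any 1 of the proestrus samples, estrus replicate 3 or 4, or diestrus replicate 3 or 5 (highest adjusted p 0.107). That call was also lost with no filter on low counts.

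Lower glycolysis carries the trioses to pyruvate and yields ATP. Of its 6 members 5 differed over the stages, each highest in estrus. Pkm, pyruvate kinase, was at 236, 230 and 250 CPM in proestrus, 372, 406 and 351 in estrus, 310, 280 and 278 in metestrus, and 364, 372 and 362 in diestrus. Here proestrus was the low stage and the diestrus samples lay inside the estrus range. Pkm rose from proestrus to estrus by 0.66 ± 0.12 (adjusted p = 0.00253), differed between proestrus and diestrus by -0.62 ± 0.12 (adjusted p = 0.00475), and gave -0.04 for diestrus against estrus (adjusted p = 0.846). Eno2, the neuronal-type enolase, averaged 12.3 ± 0.820, 26.8 ± 5.27, 17.1 ± 1.59 and 11.8 ± 1.98 CPM over the 4 stages from proestrus to diestrus. It rose from proestrus to estrus by 1.11 ± 0.22 (adjusted p = 0.00484).

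The other members of lower glycolysis moved by less or with wider spread. Gapdh, often used as a reference gene, averaged 763 ± 45.5 CPM in proestrus, 907 ± 29.9 in estrus, 626 ± 45.6 in metestrus and 679 ± 30.6 in diestrus (F test adjusted p = 0.0185). Its estrus samples lay above all others, and its call was lost without estrus replicate 3 or 4 (highest adjusted p 0.0822). The call of Gapdh was also lost with no filter on low counts. Pgk1, the first enzyme of the pathway to yield ATP, averaged 108, 188, 102 and 96.7 CPM (adjusted p = 0.0187), and its call was lost without estrus replicate 4 or 5 (highest adjusted p 0.112). Eno1, the common enolase, averaged 194, 244, 170 and 144 CPM (adjusted p = 0.0292). Its call was lost without proestrus replicate 2 or 3, estrus replicate 4 or 5, or diestrus replicate 4 or 5 (highest adjusted p 0.139). That call was also lost with library totals as scaling, and Eno1 shares 27.7% of its 31-base words with Eno1b. Eno1 was not alone in this: 54.7% of the words of Pgk1, 37.1% of Pgam1, 28.1% of Gapdh and 23.7% of Bnip3l occur in other genes. The F-test calls of Eno1, Pgk1, Gapdh and Bnip3l held with near-identical genes summed. Pgam1, the mutase, was at 125, 112 and 130 CPM in proestrus, 134, 148 and 133 in estrus, 114, 149 and 96.6 in metestrus, and 120, 117 and 134 in diestrus. Proestrus and estrus each overlapped metestrus and diestrus, and it did not pass the F test (adjusted p = 0.656).

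Pyruvate is either reduced to lactate or admitted to mitochondria. Slc16a3, the lactate exporter MCT4, differed widely between stages. It was at 1.14, 2.16 and 4.57 CPM in proestrus (2, 4 and 9 counts), 39.6, 54.9 and 32.1 in estrus, 11.9, 4.42 and 2.38 in metestrus, and 9.97, 2.47 and 8.49 in diestrus. The lowest estrus sample was more than the highest of the other 9, and the other stages overlapped. The log2 change from proestrus to estrus was 3.94 ± 0.56 (adjusted p = 0.000824) and metestrus differed from estrus by -2.70 ± 0.50 (adjusted p = 0.00626). The proestrus value rests on few counts. Ldha, the muscle-type lactate dehydrogenase subunit, behaved differently: it averaged 224 ± 12.3 CPM in proestrus, 238 ± 27.1 in estrus, 148 ± 43.9 in metestrus and 157 ± 15.6 in diestrus. Its proestrus and estrus samples overlapped (log2 change 0.09, adjusted p = 0.798). Its F-test call (adjusted p = 0.0267) was lost without proestrus replicate 1 or 3, estrus replicate 4 or 5, or diestrus replicate 3 or 5 (highest adjusted p 0.0824). The call of Ldha was also lost with library totals as scaling. Pdk1, a kinase that inhibits pyruvate dehydrogenase, averaged 19.2, 33.6, 16.8 and 16.9 CPM from proestrus to diestrus. It passed the F test (adjusted p = 0.0239), a call lost without estrus replicate 4 or 5 (highest adjusted p 0.141).

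Among the factors and sensors, Hif1a was lowest in estrus, where Egln1 and Egln3, the oxygen-sensing hydroxylases among the members, were highest. Hif1a, the oxygen-regulated factor subunit, was at 202, 177 and 225 CPM in proestrus, 93.4, 111 and 111 in estrus, 121, 145 and 141 in metestrus, and 172, 186 and 153 in diestrus. The estrus samples were the lowest 3, metestrus came next, and proestrus and diestrus overlapped at the top. Hif1a fell from proestrus to estrus by 0.94 ± 0.14 (adjusted p = 0.00108) and was higher in diestrus than in estrus by 0.69 ± 0.14 (adjusted p = 0.00336). Epas1, the related subunit of endothelial and other cells, was at 94.7, 83.6 and 74.6 CPM in proestrus, 72.4, 95.0 and 127 in estrus, 74.2, 116 and 109 in metestrus, and 88.7, 87.0 and 51.5 in diestrus. All its stages overlapped, and it did not pass (adjusted p = 0.495).

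Egln3, the strongly inducible hydroxylase, had the widest ratio of highest to lowest stage mean among the members, 34.9. It was at 11.4, 23.7 and 17.8 CPM in proestrus, 137, 177 and 138 in estrus, 34.2, 7.58 and 2.98 in metestrus, and 4.49, 3.96 and 4.53 in diestrus. Estrus stood far above all else, diestrus was low in every sample, and metestrus ranged from above proestrus in replicate 5 to below diestrus in replicate 7. Estrus exceeded proestrus by 3.09 ± 0.47 (adjusted p = 0.00115), and diestrus was below estrus by a log2 change of -5.11 ± 0.57 (adjusted p = 5.93e-05). Egln1, the main hydroxylase of most cells, averaged 95.8 ± 7.03, 132 ± 8.55, 73.6 ± 12.8 and 84.7 ± 5.75 CPM from proestrus to diestrus. It was lower in metestrus than in estrus (-0.84 ± 0.14, adjusted p = 0.00368) and lower in diestrus than in estrus (-0.64 ± 0.14, adjusted p = 0.00519).

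**Figure D2:**
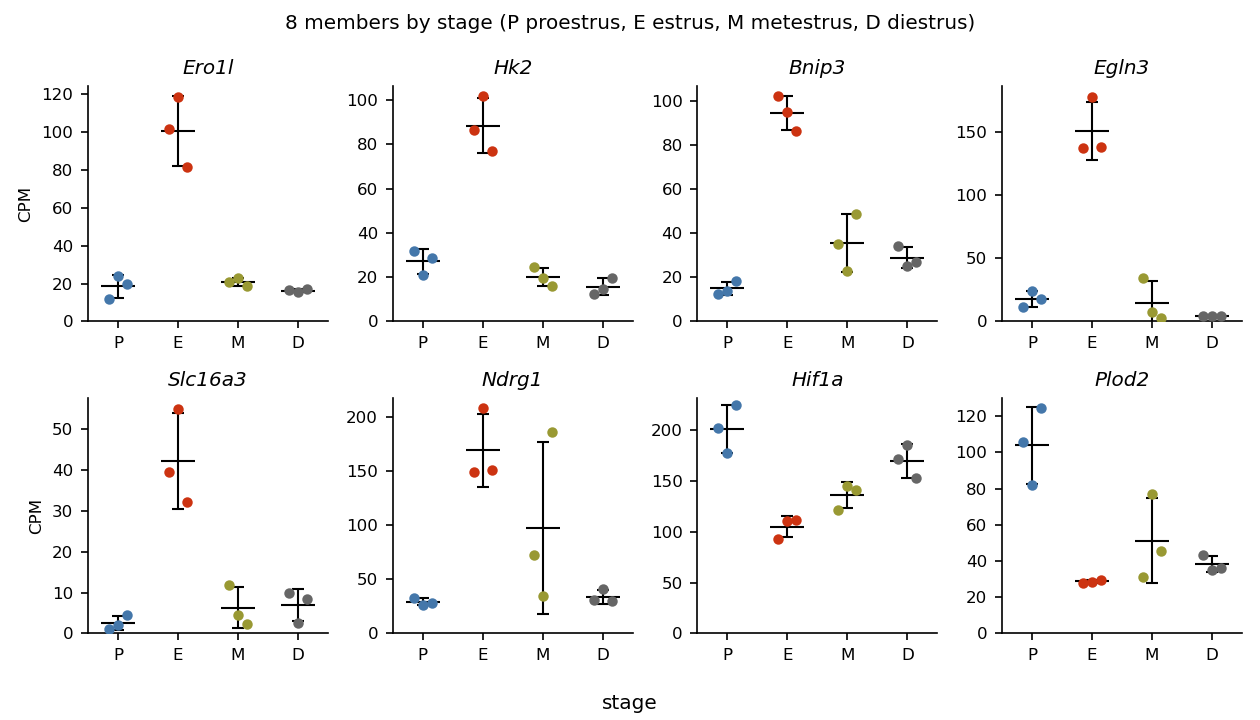
CPM of 8 members in each sample (points) by stage, with the stage mean and SD (bar and line, n = 3). Ero1l, Hk2, Bnip3, Egln3 and Slc16a3 are highest in all 3 estrus samples, Ndrg1 reaches 186 CPM in metestrus replicate 7, and Hif1a and Plod2 are highest in proestrus.

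Bnip3 and Bnip3l are receptors on mitochondria that target them for autophagy. Bnip3 was at 12.6, 14.0 and 18.3 CPM in proestrus, 102, 95.0 and 86.6 in estrus, 35.3, 22.7 and 48.9 in metestrus, and 34.4, 25.2 and 27.2 in diestrus. Estrus was highest and proestrus lowest in every sample, with metestrus and diestrus overlapping between them. It rose from proestrus to estrus by 2.65 ± 0.25 (adjusted p = 6.74e-05), and metestrus against estrus gave -1.40 ± 0.22 (adjusted p = 0.00267). Bnip3l was at 149, 140 and 90.3 CPM in proestrus, 275, 247 and 273 in estrus, 167, 129 and 169 in metestrus, and 139, 144 and 131 in diestrus. For Bnip3l only the estrus samples stood apart, by a smaller ratio than for Bnip3. The log2 change over proestrus was 1.07 ± 0.17 (adjusted p = 0.00177).

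Other mitochondrial members gave no such difference or were scarce. Higd1a, a small protein of the respiratory chain, was at 112, 129 and 142 CPM in proestrus, 111, 129 and 93.4 in estrus, 114, 95.3 and 48.3 in metestrus, and 121, 95.4 and 133 in diestrus. All its stages overlapped and it did not pass the F test (adjusted p = 0.310). Ak4, a mitochondrial adenylate kinase, averaged 1.26, 6.22, 4.11 and 2.72 CPM from proestrus to diestrus, with 2, 3 and 2 counts in the proestrus samples. It passed narrowly (adjusted p = 0.0468), but did not pass in 11 of 12 fits lacking a sample (highest adjusted p 0.148). Ak4 also did not pass with library totals as scaling, no filter on low counts, DESeq2 or limma-voom.

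Collagen modification and disulfide formation in the endoplasmic reticulum use oxygen. Ero1l, which passes electrons from new disulfide bonds to oxygen, had the smallest F-test p-value of all members (adjusted p = 1.06e-05). It was at 12.0, 23.7 and 19.8 CPM in proestrus, 102, 118 and 81.5 in estrus, 20.8, 22.7 and 18.5 in metestrus, and 16.4, 15.3 and 17.0 in diestrus. The estrus samples were far above the rest, and proestrus overlapped both metestrus and diestrus. Estrus exceeded proestrus by 2.43 ± 0.22 (adjusted p = 6.74e-05), and diestrus was below estrus by a log2 change of -2.62 ± 0.22 (adjusted p = 1.09e-05).

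Plod2, a lysyl hydroxylase that prepares collagen for cross-linking, ran the other way. It was at 106, 81.9 and 124 CPM in proestrus, 27.8, 28.6 and 29.8 in estrus, 31.1, 77.0 and 45.3 in metestrus, and 43.4, 35.1 and 36.2 in diestrus. Every proestrus sample was above every other sample, every estrus sample was below, and metestrus was the most scattered stage. Plod2 fell from proestrus to estrus by 1.85 ± 0.26 (adjusted p = 0.000825) and was higher in proestrus than in diestrus by 1.44 ± 0.26 (adjusted p = 0.00358). The collagen prolyl hydroxylase subunits did not pass the F test. P4ha1 averaged 34.8, 40.2, 35.4 and 36.5 CPM (adjusted p = 0.911) and P4ha2 averaged 16.4, 13.3, 13.7 and 26.6 CPM (adjusted p = 0.0839).

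The last group holds stress and signalling targets, of which 6 of 7 tested members differed and all 6 were highest in estrus. Ndrg1, a stress-responsive growth regulator, was at 32.5, 26.4 and 28.4 CPM in proestrus, 148.5, 208 and 151 in estrus, 72.1, 34.1 and 186 in metestrus, and 30.4, 41.0 and 30.0 in diestrus. Metestrus replicate 7 lay within the estrus range while replicate 6 lay near diestrus, so metestrus overlapped both. Estrus exceeded proestrus by 2.54 ± 0.44 (adjusted p = 0.0023). Mxi1, a partner of Max that opposes Myc, was at 33.1, 28.6 and 25.9 CPM in proestrus, 84.1, 79.5 and 77.9 in estrus, 49.3, 29.7 and 62.6 in metestrus, and 41.4, 38.6 and 26.0 in diestrus. Its metestrus samples fell in the same order as those of Ndrg1, with replicate 7 highest and replicate 6 lowest. Estrus exceeded proestrus by 1.46 ± 0.23 (adjusted p = 0.00161).

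Kdm3a, an oxygen-dependent histone demethylase, was at 18.8, 28.0 and 16.2 CPM in proestrus, 43.9, 49.8 and 47.6 in estrus, 23.3, 22.1 and 21.5 in metestrus, and 15.4, 10.9 and 19.8 in diestrus. Only estrus stood apart from all other samples, and it exceeded proestrus by 1.16 ± 0.22 (adjusted p = 0.00418). Adm, the vasodilator peptide adrenomedullin, was at 6.84, 10.8 and 7.61 CPM in proestrus, 26.0, 24.0 and 23.8 in estrus, 16.1, 16.4 and 13.7 in metestrus, and 13.0, 7.42 and 10.2 in diestrus. Its metestrus samples lay between estrus and the other stages without overlap. Estrus exceeded proestrus by 1.54 ± 0.26 (adjusted p = 0.00194). Vldlr, a lipoprotein receptor, was at 83.8, 90.02 and 91.9 CPM in proestrus, 94.0, 139 and 99.8 in estrus, 124, 116 and 112 in metestrus, and 140, 120 and 89.99 in diestrus. Proestrus was its lowest stage, diestrus overlapped all others, and it did not pass (adjusted p = 0.248).

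The remaining members were scarce. Ankrd37, a hypoxia-induced ankyrin protein, was at 1.14, 5.39 and 1.52 CPM in proestrus, 11.1, 15.4 and 21.5 in estrus, 1.56, 1.26 and 1.19 in metestrus, and 0, 0.494 and 1.70 in diestrus. All metestrus and diestrus samples held 3 counts or fewer, every estrus sample held more, and estrus differed from proestrus (adjusted p = 0.00807). Its 3′ end overlaps Ufsp2 on the opposite strand over 57 bases. Car9, a pH-regulating carbonic anhydrase, averaged 2.98, 5.98, 1.72 and 0.521 CPM from proestrus to diestrus (F test adjusted p = 0.0334), with 2, 0 and 1 counts in diestrus. Its call was lost without proestrus replicate 1, estrus replicate 4 or 5, or any 1 diestrus sample (highest adjusted p 0.133). The call of Car9 was also lost with limma-voom. Ddit4 held 53 counts in all: 11 in estrus, 12 in metestrus and 5 in diestrus, the rest in proestrus.

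The 6 pairs of stages share samples, so their counts are not independent. Between proestrus and estrus, 23 of 39 members were higher in estrus and 2 were lower, where 9.67% and 7.46% of all tested genes were. The median member changed by 0.75 on the log2 scale and the median of all genes by 0.02. All 25 calls held without metestrus replicate 5. Of these 25 calls, 18 held in every alternative fit. The 7 that did not were Ak4, Egln1, Gpi1, Pdk1, Pfkp, Pgk1 and Tpi1, and each lost its call without estrus replicate 4. Over all alternatives their highest adjusted p ran from 0.0657 for Gpi1 to 0.201 for Tpi1.

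Between estrus and metestrus, 17 members were lower in metestrus and 0 were higher by edgeR's test, against 4.73% and 2.83% of all tested genes. At an unadjusted p under 0.05 there were 29 members in either direction, against 2825 of all 12052 tested genes. DESeq2 called 18 members and 909 of all genes, and limma-voom called 19 members and 843 of all genes. The median member changed by -0.68. The calls that held in every alternative were Ankrd37, Bnip3, Egln1, Egln3, Ero1l, Hk2 and Slc16a3. The other 10 were Aldoa, Bnip3l, Gapdh, Kdm3a, Ldha, Pdk1, Pfkl, Pgk1, Slc2a1 and Tpi1. Without metestrus replicate 5 there were 19 calls, without estrus replicate 4 there were 10 and without estrus replicate 5 there were 11. In a fit of the 6 samples of these stages alone there were 9. Counts over all genes in these reduced fits are not given, so a loss particular to the members is not shown.

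Between metestrus and diestrus, 0 members were higher and 0 lower by edgeR's test, and 0.133% and 0.0913% of all tested genes were. At an unadjusted p under 0.05 there were 11 members, against 1361 of all 12052 tested genes. DESeq2 called 2 members (Ndrg1 and Pfkfb3) and 153 of all genes, and limma-voom called 0 members and 14 of all genes. Without metestrus replicate 5 edgeR's test also called 0. The median member changed by -0.17.

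Between estrus and diestrus, 26 members were lower in diestrus and 3 were higher, against 13.0% and 9.72% of all tested genes. The median member changed by -0.94. The 3 higher ones were Hif1a, Pfkfb3 and P4ha2. The call of Pfkfb3 was lost without any 1 proestrus sample, estrus replicate 3 or 5, or diestrus replicate 3 or 4 (highest adjusted p 0.186). That of P4ha2 was lost without any 1 proestrus or estrus sample, or diestrus replicate 4 or 5 (highest adjusted p 0.179). All 29 calls held without metestrus replicate 5, and 20 held in every alternative. The other 7 not held were Gapdh, Gpi1, Ldha, Pdk1, Pfkp, Pgk1 and Tpi1, each lost without at least 1 single estrus or diestrus sample, with the highest adjusted p running from 0.0531 for Pgk1 to 0.156 for Pfkp.

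Between diestrus and proestrus, 2 members were higher in proestrus (Aldoc and Plod2) and 3 lower (Bnip3, Pfkfb3 and Pkm), against 4.62% and 3.91% of all tested genes. Plod2, Pfkfb3 and Pkm held in every alternative. Aldoc was lost without proestrus replicate 1 or 2 or diestrus replicate 3 or 5 (highest adjusted p 0.0987), and Bnip3 without any 1 of the proestrus, estrus or diestrus samples (highest adjusted p 0.139). Both were also lost with limma-voom. Without metestrus replicate 5 there were 7 calls, with Egln3 and Hk2 added, without metestrus replicate 7 there were 8, and without proestrus replicate 1 or diestrus replicate 3 there were 3. Between proestrus and metestrus, 2 members were higher in metestrus (Bnip3 and Ndrg1) and 2 lower (Hif1a and Plod2), against 2.49% and 1.82% of all tested genes. None of these 4 calls held in every alternative, and their highest adjusted p ran from 0.102 for Bnip3 to 0.156 for Plod2. There were 0 calls without proestrus replicate 1, proestrus replicate 2 or metestrus replicate 7, 1 without proestrus replicate 3, estrus replicate 4, estrus replicate 5 or diestrus replicate 3, 2 without estrus replicate 3 or diestrus replicate 5, and 7 without metestrus replicate 6. Without metestrus replicate 5 there were 4, of which only Bnip3 and Ndrg1 were shared.

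**Figure D3:**
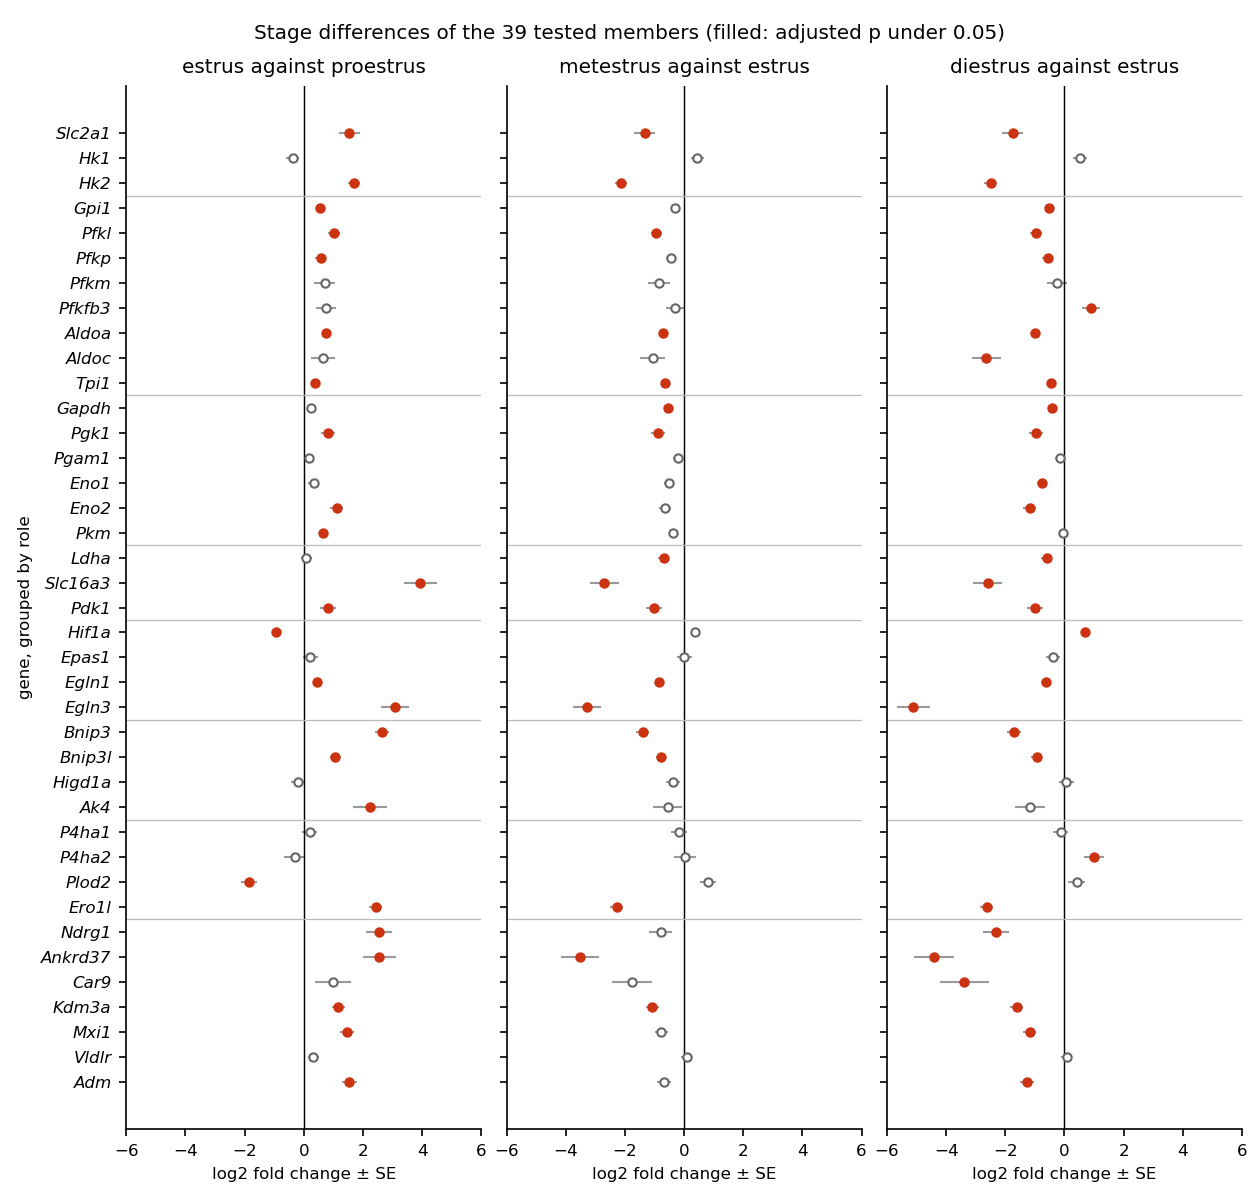
Log2 fold changes with standard errors (bars) of the tested members for estrus against proestrus, metestrus against estrus and diestrus against estrus; filled points passed the adjusted threshold of 0.05. Most members lie to the right of 0 for estrus against proestrus and to the left for the other pairs. Hif1a, Plod2, Hk1 and P4ha2 lie on the opposite side in each pair.

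Members with the same role did not all move by the same ratio, and 4 of 8 shares of related genes differed between stages. Shares of summed counts do not depend on library scaling. They are read here for a change between stages. Which of the related genes holds more transcripts was not tested. Hk2 made up 34.6% ± 2.73 (SD, n = 3) of Hk1 and Hk2 counts in proestrus, 69.1% ± 8.14 in estrus, 27.8% ± 9.55 in metestrus and 21.6% ± 3.74 in diestrus. Egln3 made up 15.3% ± 3.70 of Egln1 and Egln3 counts in proestrus, 53.2% ± 5.22 in estrus, 14.1% ± 12.3 in metestrus and 4.86% ± 0.411 in diestrus, with metestrus between 28.0% in replicate 5 and 4.42% in replicate 7. Bnip3 went from 11.2% ± 4.88 of Bnip3 and Bnip3l counts in proestrus to 26.3% ± 1.96 in estrus, and stood at 18.3% ± 3.77 and 17.3% ± 2.51 in metestrus and diestrus. Epas1 made up 29.6% ± 4.06 of Hif1a and Epas1 counts in proestrus, 47.7% ± 5.05 in estrus, 41.9% ± 3.49 in metestrus and 30.4% ± 4.63 in diestrus. The level of Epas1 itself did not pass the F test, and that of Hif1a was lowest in estrus. These 4 shares differed over the stages in an exact permutation test of the F statistic over 15400 partitions of the samples (p = 0.0024, 0.00429, 0.00383 and 0.00201 for Hk2, Egln3, Bnip3 and Epas1), with a Benjamini-Hochberg value over the 8 shares of 0.00857 for each.

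The other 4 shares did not pass the same exact test. Aldoc made up 9.25%, 8.84%, 6.69% and 3.03% of aldolase counts from proestrus to diestrus (exact p = 0.0731, adjusted 0.111). Eno2 made up 5.98%, 10.03%, 9.36% and 7.60% of enolase counts (exact p = 0.083, adjusted 0.111). P4ha2 among prolyl hydroxylase subunits gave an exact p of 0.149 and Pfkp among phosphofructokinases 0.347. The enolase share leaves out Eno1b.

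**Figure D4:**
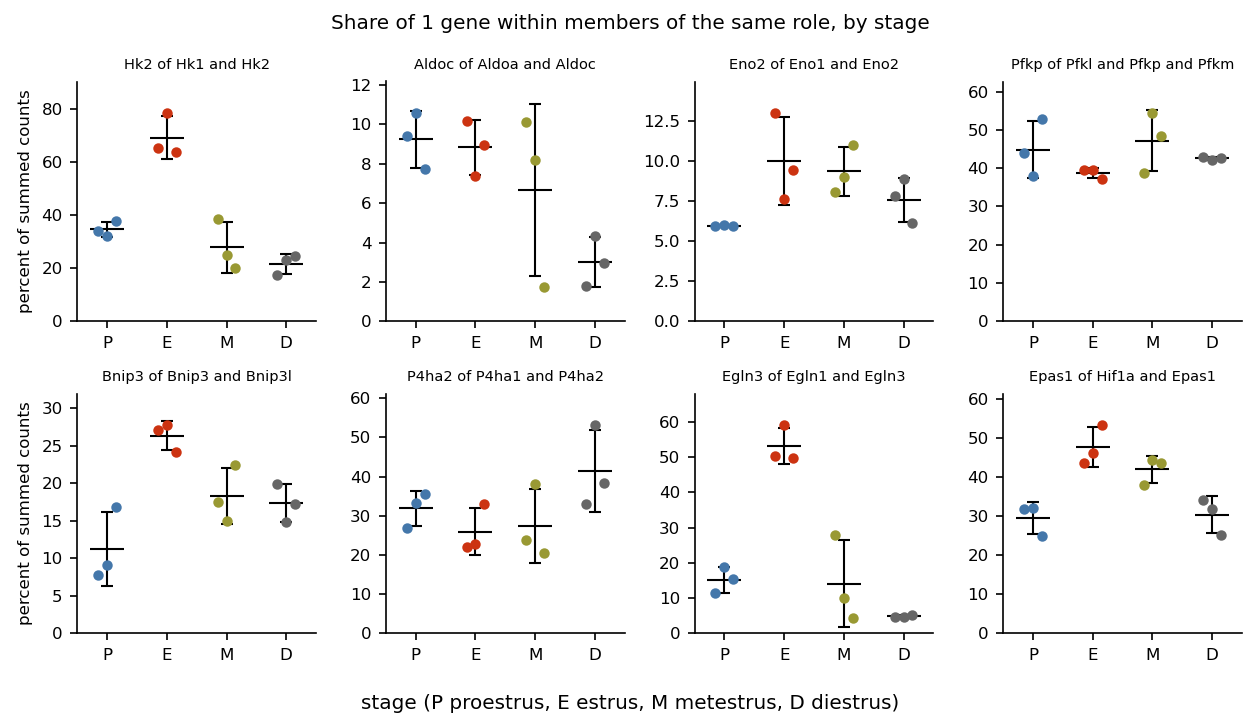
Share of summed counts (percent) held by the first-named gene of 8 isoenzyme or related pairs and trios, by stage; points are samples and bars stage means with SD. Hk2 and Egln3 hold 49.8% or more of their pairs in every estrus sample and 38.5% or less in all others.

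Across the 12 samples many but not all members varied together, as a description of samples that share a stage and a library each. The median Pearson correlation of Ero1l with the other tested members was 0.783 on log2 CPM, that of Aldoa 0.762 and that of Hk2 0.710. Aldoa and Egln3 correlated at 0.95, Aldoa and Kdm3a at 0.95, and Ndrg1 and Mxi1 at 0.94. On the other side stood Hif1a, with a median correlation of -0.582 and -0.94 with Adm, along with Hk1 (-0.496), Plod2 (-0.386) and P4ha2 (-0.345). Medians were near 0 for Pfkfb3 (-0.055), Vldlr (0.013) and Higd1a (0.088), and low for P4ha1 (0.104) and Epas1 (0.164). The stage means enter each of these values.

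Other genes of these pathways were counted from set lists, to be read against the 23.2% of all tested genes that passed the same F test. Of 14 tested genes for other glucose handling, 3 differed over the stages, a share near that of all genes. Bsg, the chaperone of lactate transporters, averaged 255, 375, 245 and 244 CPM from proestrus to diestrus (adjusted p = 0.0048). Slc16a1, the transporter MCT1, averaged 70.5 ± 6.47, 40.7 ± 4.37, 30.4 ± 4.81 and 22.5 ± 6.03 CPM (adjusted p = 0.00028). Its highest stage was thus proestrus and it fell in estrus by 0.79 on the log2 scale (adjusted p = 0.0105), where Slc16a3 rose. Slc2a3, a high-affinity glucose transporter, averaged 5.89, 5.95, 7.36 and 45.2 CPM (adjusted p = 0.00746), with 99.4 CPM in diestrus replicate 4 against 17.4 and 18.7 in the other diestrus samples.

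Genes of pyruvate oxidation and the citrate cycle had their lowest summed level in estrus. The 29 listed genes summed to 1864 to 1920 CPM in proestrus, 1459 to 1590 in estrus, 1611 to 1769 in metestrus and 1797 to 1957 in diestrus, so that estrus was lowest in every sample. Of 28 tested genes 5 passed the F test, a share below the 23.2% of all tested genes, with 4 of them highest in proestrus and 1 in diestrus. Mdh2, mitochondrial malate dehydrogenase, averaged 162, 95.3, 126 and 150 CPM from proestrus to diestrus (adjusted p = 0.00297), and Idh3a, an isocitrate dehydrogenase subunit, 77.6, 33.5, 47.7 and 63.1 CPM (adjusted p = 0.00588). Both fell from proestrus to estrus, by 0.77 (adjusted p = 0.00172) and 1.20 (adjusted p = 0.0028). Suclg1, a subunit of succinyl-CoA ligase, averaged 84.1, 59.2, 59.3 and 62.3 CPM (adjusted p = 0.0267). Pc, pyruvate carboxylase, averaged 10.6, 10.8, 17.0 and 42.3 CPM (adjusted p = 0.0423).

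In the pentose phosphate pathway, which branches from glycolysis to make NADPH, 5 of 8 genes differed, 4 highest in proestrus and 1 in estrus. Tkt, transketolase, averaged 85.2, 39.5, 54.9 and 59.9 CPM (adjusted p = 0.00372). G6pdx, the entry enzyme, averaged 68.8, 49.8, 49.5 and 35.6 CPM (adjusted p = 0.00497), and Pgd, the next dehydrogenase, 61.2, 54.7, 41.8 and 39.6 CPM (adjusted p = 0.0187). H6pd, the enzyme's counterpart in the endoplasmic reticulum, averaged 36.7, 70.3, 62.9 and 31.5 CPM (adjusted p = 0.0348). Of 18 glycogen genes 2 differed, a share below that of all genes: Gyg, the primer of glycogen, at 15.4, 35.5, 31.1 and 16.8 CPM (adjusted p = 0.0187), and Ppp1r3b, a glycogen-targeting phosphatase subunit, at 7.16, 9.32, 5.79 and 1.75 CPM (adjusted p = 0.0173).

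Of 14 tested genes of the factor's own machinery 6 differed. Cited2, an inducible competitor of the factor for its coactivators, averaged 36.8, 101, 47.2 and 46.7 CPM (adjusted p = 0.00124). Elob, Eloc and Rbx1, parts of the ubiquitin ligase that degrades the factor, were lower in estrus than in proestrus (log2 changes -0.56, -0.62 and -0.52, adjusted p = 0.0122, 0.00807 and 0.0167). Of 30 tested hypoxia-inducible genes outside the 40, 16 differed and 10 of them were highest in estrus, with 8 higher in estrus than in proestrus. Stc2, a stress-induced secreted glycoprotein, averaged 31.6, 59.9, 16.7 and 11.8 CPM (adjusted p = 3.23e-05). Lox, the collagen cross-linking oxidase, averaged 110, 168, 91.9 and 36.8 CPM (adjusted p = 0.00017). Bhlhe40, a clock-linked repressor, averaged 70.5, 128, 24.6 and 13.2 CPM (adjusted p = 0.00081), and Edn1, the vasoconstrictor endothelin, 15.6, 63.2, 29.3 and 19.5 CPM (adjusted p = 0.000984). Cited2 and Slc2a3 were each in a second of these lists.

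Markers of several cell types also moved with stage, and their part in the results was not tested. Of 7 macrophage markers 6 differed over the stages and all 7 were higher in estrus than in proestrus. They summed to 742 to 792 CPM in estrus, 302 to 351 in proestrus, 416 to 762 in metestrus and 436 to 619 in diestrus. Of 8 smooth muscle markers 5 differed, with sums of 8735 to 11210 CPM in estrus, 6488 to 9141 in proestrus, 5687 to 7777 in metestrus and 6472 to 6862 in diestrus. All 10 epithelial markers differed, with sums of 1955 to 2599 CPM in proestrus, 1815 to 2242 in estrus, 699 to 1303 in metestrus and 702 to 868 in diestrus.

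Of 5 estrogen-induced secretory genes 5 differed, with sums of 11850 to 15750 CPM in estrus, 2202 to 3800 in proestrus, 383 to 4803 in metestrus and 219 to 415 in diestrus. Of 9 stromal markers 2 differed, both highest in estrus. The 9 summed to 14440 to 14650 CPM in proestrus, 11380 to 11980 in estrus, 7212 to 15990 in metestrus and 9769 to 13210 in diestrus. The 7 endothelial markers summed to 1490 to 1624 CPM in proestrus, 1549 to 2093 in estrus, 1576 to 1855 in metestrus and 1345 to 1509 in diestrus. The 6 red blood cell markers summed to 163 to 1433 CPM over all samples, and both ends of that range were in metestrus. Of 9 neutrophil markers 5 were tested and 2 passed, 1 highest in estrus and 1 in diestrus. They summed to 13.5 to 37.6 CPM in proestrus, 38.97 to 88.7 in estrus, 12.5 to 27.8 in metestrus and 16.8 to 70.75 in diestrus. Of 10 proliferation markers 7 were lower in estrus than in proestrus, with sums of 144 to 160 CPM in estrus, 428 to 650 in proestrus, 122 to 604 in metestrus and 354 to 382 in diestrus. Of 9 tested immediate early and heat shock genes, which respond to handling of tissue, 3 passed and all 3 were highest in estrus, with sums of 396 to 543 CPM in estrus, 226 to 340 in proestrus, 324.5 to 459 in metestrus and 291 to 355.5 in diestrus. Of 7 skeletal muscle markers 4 were tested and 3 passed, 2 highest in diestrus and 1 in estrus. The 7 summed to 143 to 225 CPM in diestrus and 67.4 to 104 in proestrus. Their sums were 68.1 to 137 CPM in estrus and 37.6 to 117 in metestrus. Myh4 among them was at 0 in every library.

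**Figure D5:**
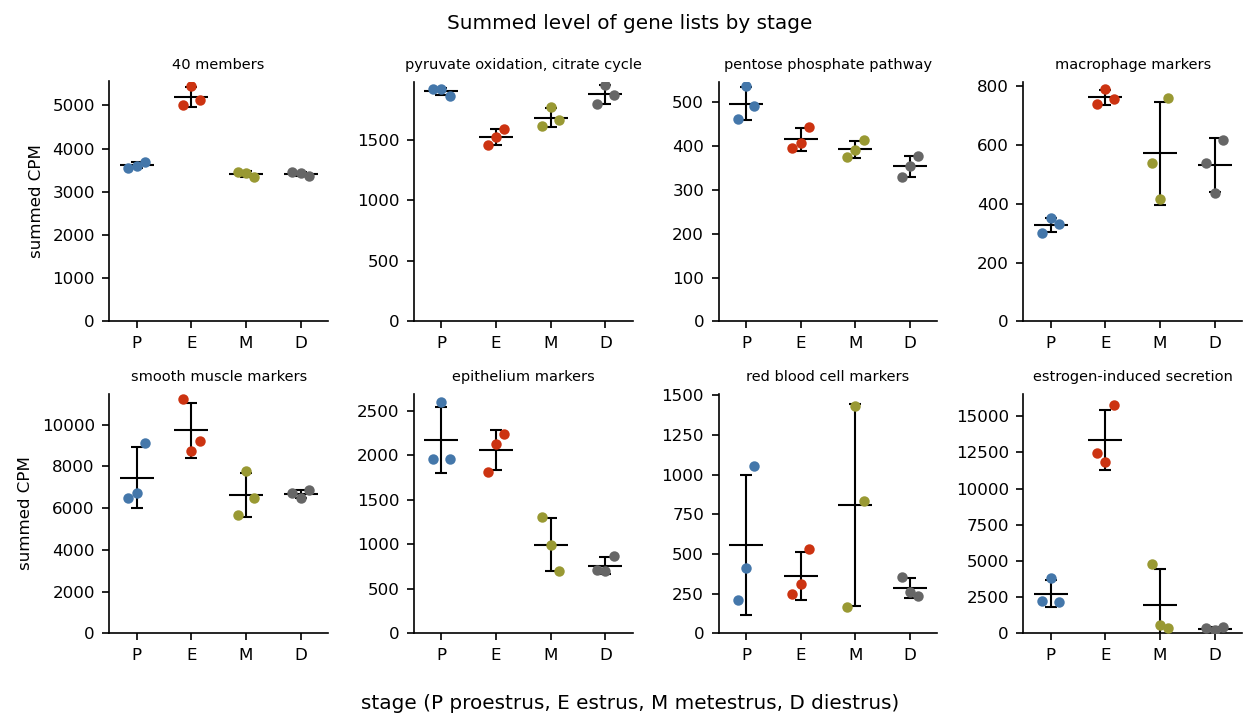
Summed CPM of 8 gene lists in each sample (points) by stage, with the stage mean and SD. The 40 members and the estrogen-induced genes are highest in the estrus samples, where the citrate cycle genes are lowest. Macrophage sums of estrus overlap those of metestrus, and the epithelial sum is high in proestrus and estrus.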

How the data were processed

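Transcript tables of estimated counts and TPM were deposited by the authors, 1 per sample. The submitters' processing notes name kallisto, FastQC and DESeq2. The transcript set, genome build and use of strand are not given in the sources used here. TPM values, as deposited, were not used, since 3′ tags do not scale with transcript length. Transcript versions were stripped and 116640 of 119414 transcripts (97.7%) were matched to GENCODE vM21 genes. Estimated counts were summed per gene and rounded. Levels are CPM over TMM-scaled library totals. All genes passing filterByExpr (12052) were fitted with 1 coefficient per stage in edgeR 4.0.16 (glmQLFit, glmQLFTest, R 4.3.3), and p-values were adjusted by Benjamini-Hochberg over all of them. The biological coefficient of variation was 20.6%, and the script was tested on simulated data. Depth was 1652841 to 2200563 estimated counts a sample. Alternatives were other scaling, no filter, DESeq2 1.42.0, limma-voom (limma 3.58.1), near-identical genes summed, fits of 2 stages alone, a replicate block, and each sample left out. Shares were tested by exact permutation. Promoter windows came from RefSeq, build GRCm38.p6.

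Every member is named. The 16 members with the smallest F-test p-values, and the 4 not passing with the highest mean level, are given in every sample. From each pathway list at most 4 genes that passed are named. The members and lists were chosen with earlier results of these data known.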

Additional observations from a re-analysis of the deposited data

How the results depend on the processing

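No call on a member in a pair of stages changed direction under any alternative: of 80 such calls, 48 stayed past the threshold in all of the 18 to 20 alternatives run for each. With each sample left out in turn, the number of members that differed ranged from 22 to 31 over the 4 stages, 18 to 25 for estrus against proestrus, 10 to 19 for metestrus against estrus, 0 to 1 for diestrus against metestrus, 3 to 8 for proestrus against diestrus, 0 to 7 for metestrus against proestrus, and 22 to 29 for diestrus against estrus. Fits of 2 stages alone gave 9 for metestrus against estrus, 8 for proestrus against diestrus and 0 for metestrus against proestrus. These 2-stage fits had fewer samples and fewer members tested. Counts over all genes are not given for them or for the fits with a sample left out. A loss particular to the members is thus not shown. Diestrus against metestrus gave 4 without the filter on low counts and 2 with DESeq2, against 256 of 20686 and 153 of 12052 genes. Proestrus against diestrus gave 3 with limma-voom, against 914 of 12052 genes. The cause was not tested.

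The shared replicate numbers of estrus and diestrus name samples, and the labels do not say that they pair samples. Deviations of same-numbered estrus and diestrus samples correlated at -0.043, 0.013 and -0.017, which gave no ground for pairing them. Other pairs of stages share at most 1 number and were not checked. With the replicate number as a block, diestrus against estrus gave 28 members, 27 of them shared, in a fit that tested 37. Members near 3 counts (Ankrd37, Car9, Ak4 and Ddit4) give levels set by few reads.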
